A study of Homo sapiens with 6 samples.

Results

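The regions described here are the CRLM1 pull-down peaks that lay at the promoters of protein-coding genes. A peak was taken when it lay on chromosomes 1 to 22 and its midpoint was within 2 kb on either side of the transcription start site (TSS), the 5' end of a protein-coding gene in GENCODE release 44 on GRCh38. Of 31502 peak intervals on these chromosomes, 594 met the rule, 358 of 14845 in replicate 1 and 236 of 16657 in replicate 2, with intervals that were identical in the files of a replicate counted once. To ask where the long noncoding RNA CRLM1 touches chromatin, the study used chromatin isolation by RNA purification with sequencing (ChIRP-seq) on HCT116 cells, an established human colorectal carcinoma line. The 6 libraries formed 3 groups of 2 replicates. They were DNA from formaldehyde-crosslinked chromatin pulled down with probes against CRLM1, DNA pulled down with probes against the bacterial gene LacZ, and genomic DNA without a pull-down, called Input. No agent or genetic change sets the groups apart in the labels, which number the replicates 1 and 2 without saying whether they were separate cultures. Each CRLM1 library was compared by the authors with the Input and with the LacZ library of its own replicate number, which gave 4 peak lists. They are named here CRLM1/Input 1, CRLM1/LacZ 1, CRLM1/Input 2 and CRLM1/LacZ 2, by control and replicate. The lists against Input and against LacZ within a replicate share the pull-down library, and no list of the LacZ pull-down itself was analysed here.

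A promoter is the stretch around a TSS where RNA polymerase II is loaded, and many human promoters lie in CpG islands, which are rich in G and C and keep the CpG dinucleotides that the rest of the genome has mostly lost. Small structured RNAs have promoters of other kinds. Genes for transfer RNAs (tRNAs) are read by RNA polymerase III from internal elements called the A box and the B box, and some of them sit close to the start of protein-coding genes. The study behind these data also dealt with hnRNPK, a protein that binds C-rich nucleic acid, so C-rich words were among those counted below.

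In 3 coding genes the promoter peaks of both replicates overlapped, BCAR3, TAF12 and GH1. The sequence of BCAR3 and TAF12 is shown first because these intervals returned and lie close to the TSS. BCAR3 encodes an adaptor protein named for antiestrogen resistance of breast cancer cells, TAF12 a subunit of the general transcription factor TFIID, and GH1 pituitary growth hormone. Each stretch is 300 bases of the GRCh38 reference, written 5' to 3' on the strand given and taken from inside the part that the intervals of both replicates share. In the BCAR3 stretch the capitals mark the tRNA gene TRR-TCT1-1, an arginine tRNA. In the TAF12 stretch they mark RNU11, the gene of the U11 small nuclear RNA (snRNA), which recognises the rare class of introns spliced by the minor spliceosome.
BCAR3 promoter, chr1:93847465-93847764, + strand: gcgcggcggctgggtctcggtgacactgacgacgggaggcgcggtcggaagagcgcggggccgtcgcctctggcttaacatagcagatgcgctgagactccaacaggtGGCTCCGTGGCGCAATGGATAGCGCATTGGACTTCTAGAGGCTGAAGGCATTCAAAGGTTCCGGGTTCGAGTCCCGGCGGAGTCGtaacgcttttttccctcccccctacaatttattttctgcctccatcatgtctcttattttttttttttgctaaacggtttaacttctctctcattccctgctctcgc
TAF12 promoter, chr1:28648526-28648825, + strand: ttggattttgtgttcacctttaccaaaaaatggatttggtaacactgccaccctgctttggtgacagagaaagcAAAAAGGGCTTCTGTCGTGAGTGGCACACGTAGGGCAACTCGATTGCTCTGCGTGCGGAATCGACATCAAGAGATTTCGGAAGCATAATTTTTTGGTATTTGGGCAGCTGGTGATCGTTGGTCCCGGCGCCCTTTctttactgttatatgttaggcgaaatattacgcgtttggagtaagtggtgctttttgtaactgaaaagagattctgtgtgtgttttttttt

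Both stretches hold a whole small RNA gene. This was seen after the members' values were known, and small RNA genes were then counted for all peaks against the RefSeq annotation of the same build. A tRNA gene lay under 20 of the 594 promoter intervals (3.37%) and under 57 of the 30908 other intervals (0.184%). An snRNA gene lay under 3 promoter intervals (0.505%) and under 7 others (0.0226%). A miRNA gene lay under 2 promoter intervals and 2 others, and a snoRNA gene under 0 promoter intervals and 5 others. The tRNA and snRNA counts include the BCAR3 and TAF12 intervals that prompted them. All of these are counts of intervals with no test.

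The next stretches show 6 of the tRNA genes with 20 flanking bases on each side, printed on the strand that carries the B box letters, which are in capitals. These letters are GGTTCGA, then any 2 bases, then CC. The genes are examples picked after the values were seen, by no fixed rule. Most were taken for a high score of the peak, or for likeness between genes under peaks of one replicate or the other. TRL-AAG2-4 met neither, and some peaks with higher scores are not shown. TRR-ACG2-1 and TRR-ACG1-2 are arginine tRNAs that match at 72 of 73 bases. TRG-TCC2-1, under a peak of replicate 1, and TRG-TCC1-1, under a peak of replicate 2, are glycine tRNAs that match at 71 of 72 bases. TRA-TGC3-1 is an alanine and TRL-AAG2-4 a leucine tRNA.
SACM1L promoter, TRR-ACG2-1, chr3:45688979-45689091, - strand: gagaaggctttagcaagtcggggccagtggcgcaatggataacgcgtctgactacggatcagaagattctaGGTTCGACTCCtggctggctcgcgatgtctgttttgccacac
HMGN4 promoter, TRR-ACG1-2, chr6:26537478-26537590, + strand: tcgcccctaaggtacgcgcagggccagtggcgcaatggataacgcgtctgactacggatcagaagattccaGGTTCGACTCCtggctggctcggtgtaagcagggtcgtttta
HJV promoter, TRG-TCC2-1, chr1:146037041-146037152, + strand: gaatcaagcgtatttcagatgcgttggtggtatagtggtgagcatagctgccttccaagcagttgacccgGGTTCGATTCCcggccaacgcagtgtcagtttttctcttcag
DPP9 promoter, TRG-TCC1-1, chr19:4724050-4724161, + strand: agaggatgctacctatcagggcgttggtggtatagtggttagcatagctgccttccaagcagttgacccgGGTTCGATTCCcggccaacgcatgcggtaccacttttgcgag
TRIM7 promoter, TRA-TGC3-1, chr5:181206848-181206959, + strand: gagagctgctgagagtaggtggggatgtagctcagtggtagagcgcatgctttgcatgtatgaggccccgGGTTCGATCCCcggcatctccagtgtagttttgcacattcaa
POLR3E promoter, TRL-AAG2-4, chr16:22297120-22297241, + strand: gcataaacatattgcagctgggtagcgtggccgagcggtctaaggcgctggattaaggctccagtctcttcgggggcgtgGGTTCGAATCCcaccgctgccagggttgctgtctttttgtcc

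The B box letters, searched on both strands, occurred in 15 of the 20 promoter intervals over a tRNA gene (75%). In the 300 bp centred on the midpoint they occurred in 6.06% of the promoter peaks of CRLM1/Input 1, 3.27% of those of CRLM1/LacZ 1 and 1.72% of those of CRLM1/Input 2. The other peaks of these lists held them in 0.207%, 0.303% and 0.146%, and 300 bp stretches laid across all promoter windows in 0.196%. Over the 3 lists, 1 promoter peak with these letters had no annotated tRNA gene. A match is a description of the letters, not of a factor that binds there.

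In all 20 intervals the tRNA gene lay wholly inside the promoter peak. The tRNA genes were 71 to 87 bp long. The centre of the peak was a median of 47.5 bp from the centre of the tRNA gene, with a range of 6 to 95 bp, and 11 of the 20 lay within 50 bp. The intervals covered 19 different tRNA genes at 16 coding genes. They lay closer to the TSS than the promoter intervals as a whole, with 17 of 20 (85%) within 1000 bp against 286 of all 594 (48.1%), and 16 of them were upstream. Where the tRNA genes of all promoter windows lie relative to the TSS was not counted, so this position is not given as a trait of the peaks. Their GC content had a median of 50.8% and ran from 39.7% to 61.3%.

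By list, 5 of 66 promoter peaks of CRLM1/Input 1 covered a tRNA gene, which is 7.58% with an exact (Clopper-Pearson) 95% interval of 2.51 to 16.8%. In CRLM1/LacZ 1 it was 11 of 336 (3.27%, 1.65 to 5.78%). In CRLM1/Input 2 it was 7 of 233 (3%, 1.22 to 6.09%). The other peaks of the same lists stood at 0.229%, 0.263% and 0.128%, with upper limits of 0.349%, 0.385% and 0.196%. In CRLM1/LacZ 2 0 of 9 promoter peaks, with an upper limit of 33.6%, and 2 of 352 other peaks (0.568%) covered one. These intervals cover counting error only, and the difference was not tested. The counts include the BCAR3 peaks that prompted them. In replicate 1, 3 of the peaks over a tRNA gene were called against both controls and count in both lists. Promoter windows are themselves richer in tRNA genes than the rest of the genome, with 0.813 against 0.143 genes per Mb. When the windows were divided into tiles of 400 bp, close to the median width of the peaks, 0.0372% of tiles in the windows and 0.00648% of tiles elsewhere overlapped a tRNA gene.

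**Figure D1:**
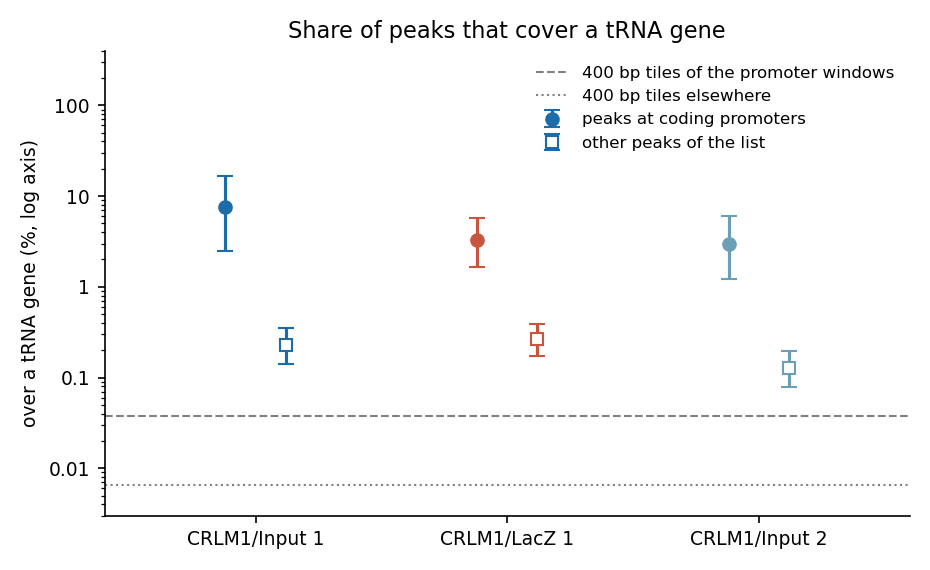
The plot of tRNA overlap gives the percentage of peaks that cover a tRNA gene on a log axis for the 3 larger lists, with filled circles for promoter peaks, open squares for the other peaks of the list and bars for exact 95% intervals. The promoter peaks stand at 7.58%, 3.27% and 3%, above the other peaks of each list and above the dashed line (0.0372%, 400 bp tiles of the promoter windows) and the dotted line (0.00648%, tiles elsewhere).

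Counted from the genes, 56 of the 439 tRNA genes on these chromosomes had their centre in a promoter window. A peak of either replicate covered 19 of the 56 (33.9%), 13 in replicate 1 and 7 in replicate 2, and 1 was covered in both. Of the 383 tRNA genes elsewhere, 59 (15.4%) were covered, 5 of them in both replicates. Of the 51 coding genes with a tRNA gene in the promoter window, 17 (33.3%) had a promoter peak, against 617 of the 19060 without one (3.24%). The difference between these shares was not tested. Of the 19 tRNA genes under promoter peaks, 14 have at least 1 other gene of exactly the same sequence on these chromosomes, up to 7 others, and 5 have none. Reads that lie within such a gene cannot be given to a single copy by sequence, so which copy a peak belongs to rests on the flanking bases. By anticodon, the tRNA genes under promoter peaks fell into 12 families in replicate 1 and 6 in replicate 2, of which 2 occurred in both, TRG-TCC and TRR-TCT. The 5 genes without a copy include TRR-TCT1-1 at BCAR3 and TRU-TCA1-1 at ERCC1, the selenocysteine tRNA.

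The promoter peak at BCAR3 had the highest score of the 7 over a tRNA gene in CRLM1/Input 2, 163.04, and the lowest of the 11 in CRLM1/LacZ 1, 50.63. The score is the value that the authors' peak caller gave a peak, with a floor of 50 in all 4 lists, and was compared only within a list. PLXDC1, a membrane protein gene, had 2 intervals in replicate 2, over TRC-GCA2-3 and TRC-GCA2-4, cysteine tRNA genes of the same sequence, with scores of 75.26 and 117.05 against Input. HJV, which encodes the iron regulator hemojuvelin, had 2 intervals in replicate 1, over TRE-CTC1-1 and TRG-TCC2-1. Those were called against both controls, with scores of 51.77 and 79.31 against Input and of 99.26 and 100.01 against LacZ. ALOXE3, an epidermal lipoxygenase gene, had 2 intervals in replicate 2 with scores of 71.32 and 52.42. So 3 of the 8 genes with 2 promoter intervals in a replicate had a tRNA gene under both, the other 5 being NUP85, OR2AP1 and PRR23B in replicate 1 and ALOX15B and LINC02218 in replicate 2.

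Other peaks of this kind were at SACM1L, a phosphoinositide phosphatase gene (112.51), TRIM7, a ubiquitin ligase gene (110.05), SMARCC2, a subunit of the BAF chromatin remodeller (70.91), and MYNN (62.52), all in CRLM1/LacZ 1 only. The peak at POLR3E, which encodes a subunit of RNA polymerase III itself, scored 69 in the same list, at -121 bp from the TSS (negative values are upstream), over TRL-AAG2-4. A peak at POLR3D, another subunit of that polymerase, covered the miRNA gene MIR320A and scored 51.99. Apart from BCAR3 and ERCC1, these genes were singled out after their values were seen, for the small RNA gene under the peak. HSPA6, a stress-induced Hsp70 gene, had a peak called against both controls in replicate 1 (66.83 against Input, 61.74 against LacZ) over a glycine tRNA gene. In CRLM1/LacZ 1 the median score was 69 for the 11 peaks over a tRNA gene and 58.62 for the other 325, and in CRLM1/Input 2 73.5 for 7 and 57.05 for 226. In CRLM1/Input 1 they were 59.9 for 5 and 55.85 for 61. Scores of 100 or more were held by 3 of the 11 and 11 of the 325 in CRLM1/LacZ 1, and by 2 of the 7 and 7 of the 226 in CRLM1/Input 2.

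The 3 promoter intervals over an snRNA gene were at TAF12 in both replicates and at TMEM259 in replicate 1. The TAF12 interval of replicate 1 was 928 bp wide, with scores of 138.42 against Input and 119.92 against LacZ, and lay at -608 bp. That of replicate 2 was 646 bp wide, scored 56.56 against Input and lay at -557 bp, wholly inside the former. The TMEM259 interval covered RNU6-2, a gene of the U6 spliceosomal RNA, which RNA polymerase III reads, and scored 84.11 against LacZ. Of the 11 snRNA genes in promoter windows 2 lay under a peak (18.2%), against 6 of the 140 elsewhere (4.29%), and of the 62 snoRNA genes in promoter windows 0 did. The 2 include RNU11, whose peaks prompted the count. Among tiles of 400 bp, 0.00697% in the promoter windows and 0.00266% elsewhere overlapped an snRNA gene.

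**Figure D2:**
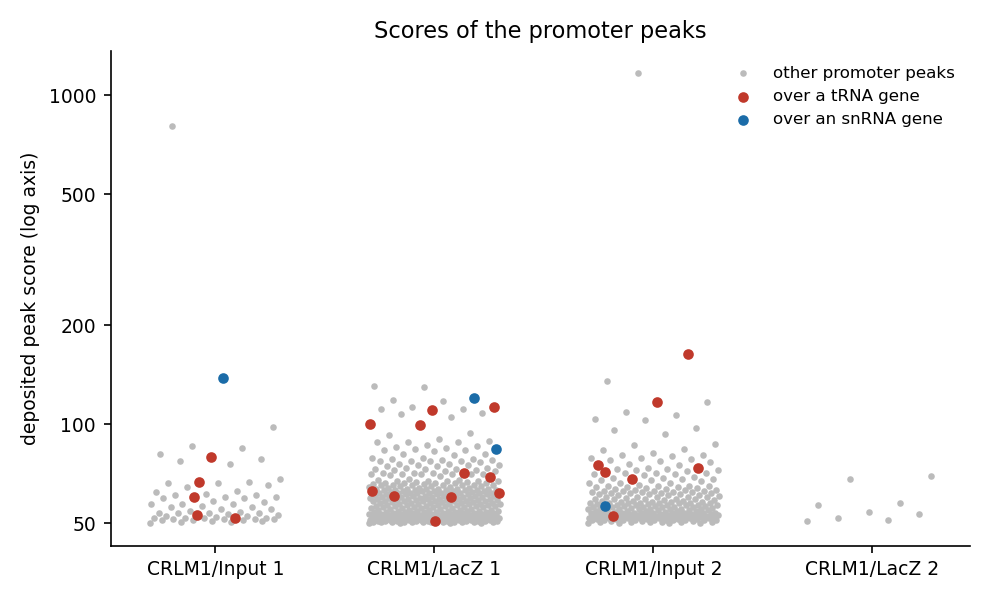
The plot of scores gives every promoter peak by list on a log axis, with red points for peaks over a tRNA gene, blue for those over an snRNA gene and grey for the rest. Most points lie between 50 and 100, the points above 500 are the GH1 peak (803 and 1164.51), and red or blue points are among the highest of the rest in the 3 larger lists.

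Set against the amount of sequence, the lists differed in how often they reached promoters. The windows took up 68.9 Mb, which is 2.5% of the 2756 Mb of known sequence. Promoter peaks were 0.713% of the 9251 peaks of CRLM1/Input 1 (66 peaks, exact 95% interval 0.552 to 0.907%), a ratio of 0.286 to the share of sequence. They were 3.28% of the 10234 peaks of CRLM1/LacZ 1 (336 peaks, 2.95 to 3.65%), a ratio of 1.31. They were 1.4% of the 16638 peaks of CRLM1/Input 2 (233 peaks, 1.23 to 1.59%), a ratio of 0.561, and 2.49% of the 361 peaks of CRLM1/LacZ 2 (9 peaks, 1.15 to 4.68%), a ratio of 0.998. The exact interval lay below the share of sequence in both Input lists, lay above it in CRLM1/LacZ 1 and held it in CRLM1/LacZ 2. Such an interval treats each peak of a list as a separate draw. It does not measure the spread between replicates, and no difference from the share of sequence was tested. Within replicate 1, 292 of the 358 intervals were called against LacZ only, 22 against Input only and 44 against both. They were 5.22%, 0.477% and 0.948% of all intervals of replicate 1 called in these ways. Within replicate 2, 3 were called against LacZ only, 227 against Input only and 6 against both, which is 15.8%, 1.39% and 1.75% of all its intervals called in these ways. Few peaks of replicate 2 were called against LacZ at all. Its 15.8% rests on 3 promoter intervals beside 16 other intervals called against LacZ only.

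**Figure D3:**
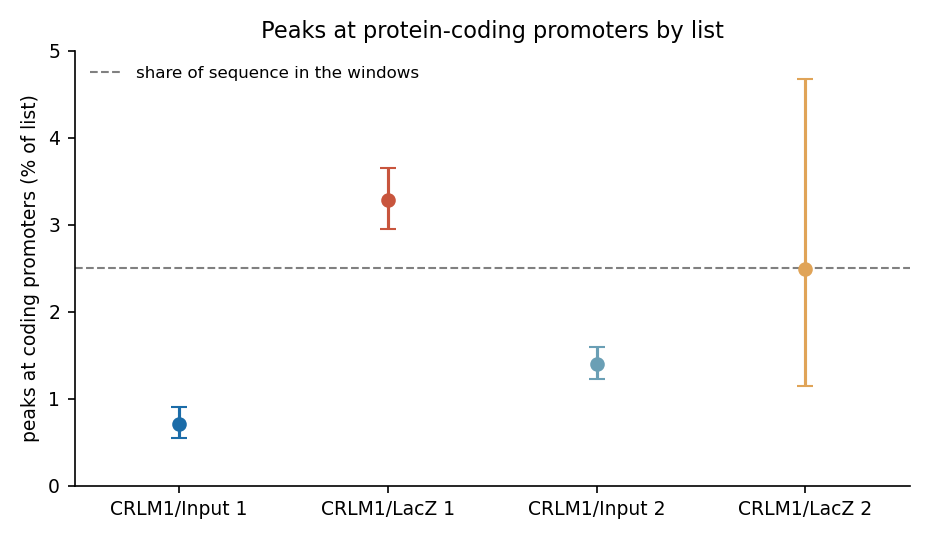
The plot of promoter share gives, for each of the 4 lists, the percentage of peaks at coding promoters with its exact 95% interval, and a dashed line for the share of sequence in the windows (2.5%). CRLM1/LacZ 1 (3.28%) stands above the line, both Input lists (0.713% and 1.4%) below it, and CRLM1/LacZ 2 (2.49%) on it with a wide interval.

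The peaks reached few genes. Of 19111 coding genes, 64 had a promoter peak in CRLM1/Input 1 (0.335%), 376 in CRLM1/LacZ 1 (1.97%), 241 in CRLM1/Input 2 (1.26%) and 9 in CRLM1/LacZ 2 (0.0471%). A peak reached 2 or more coding genes in 0, 41, 12 and 0 cases, in the same order, and in 32 of the 41 and 9 of the 12 the genes lay on opposite strands.

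Few promoter peaks came back in the other replicate. Against Input, 2 of 66 promoter peaks of replicate 1 (3.03%) overlapped a peak of replicate 2 by at least 1 bp, beside 1.66% of all peaks of that list. In the other direction it was 2 of 233 (0.858%), beside 0.902% of all peaks. Against LacZ it was 0 of 336 in replicate 1, beside 0.0586% of all peaks, and 0 of 9 in replicate 2, beside 1.66%. These shares of promoter peaks rest on counts of at most 2. At the level of genes, 3 had a promoter peak against Input in both replicates (GH1, SLC16A9 and TAF12), which is 4.69% of the genes of replicate 1 and 1.24% of those of replicate 2. No gene had one against LacZ in both. With either control, 8 genes did, of 398 in replicate 1 (2.01%) and 244 in replicate 2 (3.28%). Of all coding genes, 1.28% had a promoter peak in replicate 2 and 2.08% in replicate 1, and the overlap was not tested. With windows of 1 kb in place of 2 kb, 2 of the 8 remained, BCAR3 and TAF12, and with peaks at or above the median score of their list 2 remained, GH1 and S100A5.

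The GH1 interval had the highest score of the promoter peaks in both Input lists. It scored 803 against Input and 129.86 against LacZ in replicate 1, and 1164.51 against Input in replicate 2, where it was not called against LacZ. Its midpoint was 1909 and 1821 bp downstream of the TSS, past the 3' end of this short gene, and the intervals shared 636 bp. The BCAR3 intervals shared 351 bp and were called against different controls, with midpoints at -511 and -456 bp. In the other 5 genes the peaks of the replicates did not touch. They were 342 bp apart at TMEM229A, 627 bp at HAS3, a hyaluronan synthase gene, 720 bp at SENP7, a SUMO protease gene, 1106 bp at SLC16A9, a gene of the monocarboxylate transporter family, and 1270 bp at S100A5, which encodes a calcium-binding protein. In CRLM1/LacZ 1 the scores of 4 of these genes ran from 53.1 at HAS3 to 67.86 at S100A5, and in CRLM1/Input 2 those of all 5 ran from 52.54 at SLC16A9 to 83.89 at S100A5.

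Where the peaks lay relative to the TSS also differed by list. Distance was taken to the nearest coding TSS, so where windows overlap the bins next to the TSS hold more sequence than the far bins. The shares for evenly placed peaks were not computed. In CRLM1/LacZ 1, 102 of 336 peaks (30.4%) had their midpoint within 500 bp of the TSS and 53 (15.8%) covered a TSS. In CRLM1/Input 1 it was 10 of 66 (15.2%) and 4 (6.06%), and in CRLM1/Input 2 41 of 233 (17.6%) and 13 (5.58%). The 500 bp bins on both sides of the TSS were the fullest in CRLM1/LacZ 1, with 51 peaks each, and the emptiest in CRLM1/Input 2, with 21 upstream and 20 downstream. Upstream peaks made up 53.6% in CRLM1/LacZ 1, 56.1% in CRLM1/Input 1 and 55.8% in CRLM1/Input 2. Over all coding genes the GC content of these bins was highest next to the TSS, with medians of 55.6% just upstream and 62.6% just downstream, and 45% in the farthest bin upstream. By annotation, 50 midpoints of CRLM1/LacZ 1 (14.9%) fell in an untranslated region and 21 (6.25%) in coding sequence, against 14 (6.01%) and 11 (4.72%) in CRLM1/Input 2.

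**Figure D4:**
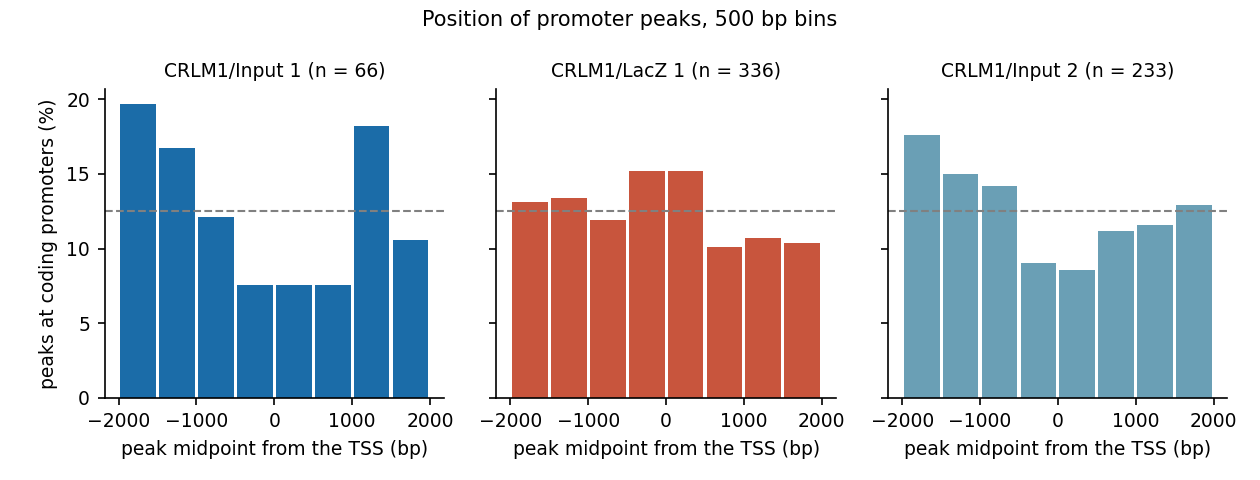
The plot of positions gives the percentage of promoter peaks in each 500 bp bin from 2000 bp upstream (negative) to 2000 bp downstream of the TSS for the 3 larger lists, with a dashed line for an equal share in every bin. The pair of bins at the TSS holds 15.2% each in CRLM1/LacZ 1, 7.58% each in CRLM1/Input 1, and 9.01% and 8.58% in CRLM1/Input 2. The line is not the share for evenly placed peaks, because windows of neighbouring genes overlap and the nearest TSS was used.

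The promoter peaks had a higher median GC content than the other peaks of each list, a difference that was not tested. In CRLM1/LacZ 1 they had a median GC content of 50.5%, against 41.1% in the other peaks of that list and 50.7% in the promoter windows of all coding genes. In CRLM1/Input 1 it was 40.3% against 37.9%, in CRLM1/Input 2 44.5% against 38.8%, and in CRLM1/LacZ 2 45.1% against 39.8%. The ratio of observed to expected CpG had medians of 0.417, 0.192, 0.263 and 0.347 in the same order of lists, against 0.505 in all promoter windows. Of the 292 intervals of replicate 1 called against LacZ only, 107 (36.6%) had a GC content of 55% or more, against 5.28% of the other intervals called in that way. Whole promoter windows of all coding genes had an upper quartile of 55.6% GC. How much promoter sequence reaches 55% in stretches as short as the peaks was not counted, so the 36.6% is not given as a trait of these peaks.

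**Figure D5:**
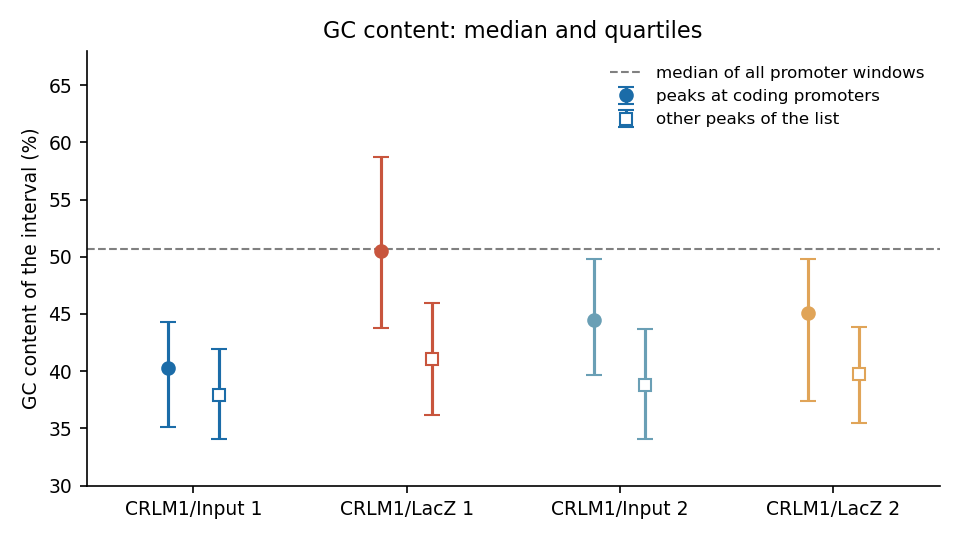
The plot of GC content gives the median and quartiles of the GC content of promoter peaks (filled circles) and of the other peaks (open squares) in each list, with a dashed line at the median of all promoter windows (50.7%). The promoter peaks of CRLM1/LacZ 1 (50.5%) lie at the line, and those of the other lists (40.3%, 44.5% and 45.1%) below it.

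Because GC content and position go together at promoters, the share of promoter peaks was also taken within classes of GC content, a split made after the data were seen. Among peaks with 55% GC or more, 26.8% of those of CRLM1/LacZ 1 were promoter peaks (108 of 403, exact 95% interval 22.5 to 31.4%), whereas 13.8% of all 400 bp tiles with such a GC content lay in promoter windows, a ratio of 1.94. From 50 to 55% GC the ratio was 1.73, and below 40% it was 1.05. In CRLM1/Input 2 the ratios were 0.654, 0.84, 0.745 and 0.698 from the lowest to the highest class, and in CRLM1/Input 1 0.559, 0.367, 0.596 and 0.557. Both Input lists thus had ratios below 1 in every class. The exact interval of the promoter share held the share of tiles in the class from 40 to 50% and that from 50 to 55% for CRLM1/Input 2, and in the classes of 50% GC and more for CRLM1/Input 1. For CRLM1/LacZ 1 it lay above the share of tiles in both classes from 50% GC, and held it below 40 and from 40 to 50%.

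Genes were also grouped by the CpG content of their promoter, and CRLM1/LacZ 1 ran in the opposite direction to the other 3 lists. In CRLM1/LacZ 1, 2.29% of the 7726 genes with a high-CpG promoter had a peak, 1.97% of the 4775 intermediate and 1.59% of the 6610 low-CpG genes. In CRLM1/Input 1 the values were 0.194%, 0.293% and 0.53%, in CRLM1/Input 2 0.712%, 1.47% and 1.75%, and in CRLM1/LacZ 2, on 9 genes, 0.0129%, 0.0209% and 0.106%. Motifs of promoters also differed between the lists. The 300 bp windows around coding TSSs used below lie at the TSS itself, where GC content is highest. The peaks lie anywhere within 2 kb of it, so these windows are not a background matched for position. GGGCGG, the GC box bound by Sp1 and related factors, was found on either strand of the 300 bp around the midpoint in 25% of the promoter peaks of CRLM1/LacZ 1 and 3.36% of its other peaks, in 7.3% and 2.27% in CRLM1/Input 2, in 3.03% and 1.65% in CRLM1/Input 1, and in 52.6% of the 300 bp windows around all coding TSSs. TATAAA, the letters of the TATA box, was found in fewer promoter peaks than other peaks in the 3 larger lists, with 11.3% and 25% in CRLM1/LacZ 1, 17.6% and 29.3% in CRLM1/Input 2, 19.7% and 30.3% in CRLM1/Input 1, and 10.9% around all TSSs. In CRLM1/LacZ 2 it was found in 4 of 9 promoter peaks (44.4%) and 23.6% of other peaks. The C-rich word TCCCC was found in 60.4%, 33.3% and 47.2% of the promoter peaks of CRLM1/LacZ 1, CRLM1/Input 1 and CRLM1/Input 2, against 37.4%, 31.8% and 34.2% of their other peaks and 70.4% of all TSS windows. CCCTCCC, which can share letters with it, was found in 14.9%, 6.06% and 9.01%, against 5.67%, 4.17% and 4.68%, and 29.1% of all TSS windows. CCAAT was found in 31.5%, 37.9% and 38.6%, against 37.6%, 40.7% and 39.4%. Likeness to 7SL RNA, from which Alu repeats derive, in the same 300 bp was found in 16.4%, 19.7% and 16.3% of promoter peaks, against 15.7%, 10.4% and 12.2% of other peaks and 11.1% of stretches across all promoter windows.

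The capture probes themselves gave no long match at promoters. The 9 CRLM1 probes and the 21 LacZ probes were 59 bases long, and the longest exact run that a promoter peak shared with any CRLM1 probe had a median of 9 bases and a maximum of 12 to 14 bases in the 3 larger lists. Against the LacZ probes the maximum was 13 to 15 bases. A run of 12 bases or more shared with a CRLM1 probe occurred in 1.52%, 1.49% and 2.58% of promoter peaks and in 1.71%, 1.8% and 1.91% of the other peaks of CRLM1/Input 1, CRLM1/LacZ 1 and CRLM1/Input 2.

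Median scores of promoter peaks were close to those of the other peaks of their list. The medians were 56.05 and 56.11 in CRLM1/Input 1, 59.00 and 57.93 in CRLM1/LacZ 1, 57.44 and 57.73 in CRLM1/Input 2, and 54.03 and 56.02 in CRLM1/LacZ 2. Scores of 100 or more were held by 2, 14, 9 and 0 promoter peaks, which is 3.03%, 4.17%, 3.86% and 0%. Among the other peaks of these lists the shares were 2.29%, 1.97%, 1.61% and 0.568%, and the difference was not tested. Beside GH1, TAF12 and BCAR3, the highest were NDUFS4, a complex I subunit gene (98.06 in CRLM1/Input 1), PYGO2, a coactivator of Wnt signalling (130.39 in CRLM1/LacZ 1), and CORO1A, the gene of an actin-binding coronin (135.68 in CRLM1/Input 2). CORO1A also had the highest score of the 9 promoter peaks of CRLM1/LacZ 2, 69.4. The next were ALDH7A1, an aldehyde dehydrogenase (68.32), CYP2W1, a cytochrome P450 (57.53), GJA5, a gap junction connexin (56.8), KRT73, a hair follicle keratin (54.03), and MIA2 (53.2), all of which were also called against Input in that replicate. GPATCH8 (51.78), ZNF577 (51.13) and ARRDC5 (50.96) were called against LacZ only. None of the 9 genes had a promoter peak in replicate 1, as was the case for most coding genes, of which 2.08% had one.

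At the edge of the rule, the midpoint of a peak at C9 lay at -1996 bp (54.64 against Input and 55.53 against LacZ in replicate 1) and that of a peak at TRAPPC8 at 1999 bp (80.75 against Input in replicate 2). Just outside were a peak at ENGASE, at 2011 bp (54.68 against LacZ in replicate 1), and one at INCENP, at 2012 bp (60 against Input in replicate 2).

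Gene groups were described by the number of their members with a promoter peak. None of 6 genes that the study followed as bound by CRLM1, among them the kinase genes MAPK9 and GSK3B, of 22 further genes it discussed as regulated, of 33 colorectal cancer driver genes or of 30 genes of the colon epithelium had a promoter peak in any list. The study chose the first set with its own peaks in view, and by a different rule. It called a gene bound by a peak in the gene body or in a longer stretch upstream of the TSS than here. It first removed peaks that overlapped LacZ peaks, a filter not applied here. Whether these genes hold a peak of the lists used here by the study's own rule was not tested. For comparison, 634 of all coding genes (3.32%) had a promoter peak in at least 1 list, and single lists reached between 0.0471% and 1.97%. Of 8 genes linked to hnRNPK, 1 had a peak, the kinase gene SRC (62.63, at -514 bp, CRLM1/Input 2). In the TGF-beta and BMP group 1 of 61 had one, ID1, a target gene of BMP signalling (67.56, at 149 bp, CRLM1/LacZ 1). In the Wnt group it was 2 of 68, WNT11, a ligand (104.85), and CCND1, the cyclin D1 gene (53.1), both in CRLM1/LacZ 1 only. In the apoptosis group it was 2 of 47, BAK1, a pore-forming effector (78.66), and FAS, a death receptor (53.83), both in CRLM1/Input 2 only. In the DNA damage group it was 2 of 74, ERCC1, a repair nuclease subunit whose peak covered the selenocysteine tRNA gene (60.38), and FANCF, a Fanconi anaemia protein (51). In the cell adhesion group it was 1 of 76, ITGA3, an integrin chain (53.8).

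Other groups were described in the same way. Of all coding genes, 0.335% had a peak in CRLM1/Input 1, 1.97% in CRLM1/LacZ 1 and 1.26% in CRLM1/Input 2. Of 80 ribosomal protein genes, 4 had a peak in CRLM1/LacZ 1 (5%) and 0 in the other lists, namely RPL12 (75.42), RPL23 (59.08), RPL13A (55.38) and RPL26L1 (50.43). Of 78 genes of mitochondrial ribosomal proteins, 4 had a peak in CRLM1/LacZ 1 (5.13%), 1 of which, MRPL15 (83.33), also in CRLM1/Input 1 (50.98), and MRPS25 had one in CRLM1/Input 2 (51.52). Of 30 immediate early genes, 2 had one in CRLM1/LacZ 1 (6.67%), NR4A1, a nuclear receptor (65.05), and JUNB, a subunit of AP-1 (56.08). Of 39 HOX genes, 3 had a peak in CRLM1/Input 2 (7.69%). They were HOXB2 (59.78) and HOXA3 and HOXA6, which shared 1 interval (53.86). In CRLM1/LacZ 1 it was 1 of 39 (2.56%), HOXB9 (53.63). Of 399 olfactory receptor genes, which are silent in most tissues, 6 had a peak against Input and 6 against LacZ in replicate 1. That is 1.5% in each list, beside 0.335% and 1.97% of all coding genes. Apart from OR6C2, called against Input only, and OR2AG2, called against LacZ only, these were the same intervals in both lists, from the same pull-down library. The highest scores were at OR9A4 against Input (66.28) and at OR2AP1 against LacZ (77.29). In CRLM1/Input 2, 4 had one (1%, beside 1.26%), led by OR52B2 (68.62). Of 496 zinc finger genes named ZNF, 23 had a peak in at least 1 list (4.64%, beside 3.32% of all coding genes), 12 of them in CRLM1/LacZ 1 (2.42%, beside 1.97%), led by ZNF627 (117.38). Of 359 solute carrier genes, 12 had one (3.34%, close to the 3.32% of all coding genes), 9 of them in CRLM1/Input 2 (2.51%, beside 1.26%), led by SLC23A2, a vitamin C transporter gene (103.48). Of 73 histone genes, 2 had one, H4C8, whose peak covered a tRNA gene (59.9), and H1-3 (51.16). Of 37 marker genes of other tissues, 2 had one, GH1 and ALB, the serum albumin gene of hepatocytes (52.6, CRLM1/Input 2). Of 63 protocadherin genes 1 had one, PCDHA1 (66.61 against Input and 50.54 against LacZ in replicate 1), and of 55 keratin genes 1, KRT73. The shares of these groups were not tested against those of all coding genes.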

How the data were processed

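Per the labels and the submitters' processing notes, cutadapt was used for trimming and Bowtie2 for alignment to GRCh38. The authors called peaks in each replicate, without pooling. The deposited lists give each peak a start, an end and a score, which is the value the authors' peak caller assigned. The study's methods name MACS2 with a q-value cutoff, whereas an older MACS release would write such peak names and a lowest score of 50, so the scale of the score is not settled and scores were compared only within a list. The lists hold no reads, so the depth of the libraries is unknown. The study removed peaks that overlapped LacZ peaks, and that filter was not applied, since LacZ peaks called against Input were not analysed here. There were 0 unused columns of per-sample values.

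Files were read in Python 3.11.15 with numpy 2.4.6, scipy 1.17.1 and pysam 0.24.0, figures were drawn with matplotlib 3.10.9, and sequence was taken from the GRCh38 reference with samtools 1.23.1. Genes came from GENCODE release 44 and small RNA genes from RefSeq on the same build. A tRNA, snRNA, snoRNA or miRNA gene counted as covered when it shared at least 1 bp with the peak. Promoters were called high-CpG with a GC content of at least 55% and a CpG ratio of at least 0.75 in the 250 bp before to 50 bp after the TSS, and low-CpG with a ratio under 0.48. Likeness to 7SL was searched with BLAST+ 2.17.0 (word size 11, E-value limit 1e-05). Motifs were searched on both strands in 300 bp centred on the midpoint. Exact intervals are Clopper-Pearson at 95%. No test of a difference was run, because a group had 1 list per replicate. The functions were tested on simulated peaks.

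The promoter rule and the gene lists were chosen with earlier results of these data known. Small RNA genes, the B box, 7SL likeness and classes of GC content were added after the data were seen. The text names genes whose promoter peaks overlap between replicates, the 3 highest scores per list, every promoter peak of CRLM1/LacZ 2, up to 4 genes per gene list and the peaks next to the 2 kb limit, and genes outside this rule are said to be chosen for a small RNA gene or for peaks in both replicates. The planned share of soft-masked sequence was not computed, since the reference used here is in upper case throughout. The sequence of 1 interval is not reported here.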

Additional observations from a re-analysis of the deposited data

How the results depend on the processing

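Of 225 values under alternatives, 146 stayed the same and 79 moved. A count or a tRNA share moved when it changed by more than a factor of 1.5, or between 0 and another value. The ratio of promoter share to sequence share moved when it left its main exact interval. Medians and motif shares were judged on a scale set by the difference between the replicates. Reversal was not assessed. Of the 79, 27 were among 100 values of medians and motif shares. The number of promoter intervals followed the window. With 1 kb, 5 kb, the 5' ends of all coding transcripts, or peaks at or above the median score of their list, in this order, the 358 intervals of replicate 1 became 186, 809, 646 and 192, and the 236 of replicate 2 became 100, 653, 516 and 115. Genes with a peak went from 64 to 22, 191, 185 and 32 in CRLM1/Input 1, from 376 to 197, 852, 604 and 195 in CRLM1/LacZ 1, from 241 to 100, 712, 516 and 117 in CRLM1/Input 2, and from 9 to 2, 26, 17 and 4 in CRLM1/LacZ 2. The share of intervals over a tRNA gene, an alternative set added after the data were seen, went from 3.63% to 5.91%, 2.35%, 2.32% and 5.73% in replicate 1, and from 2.97% to 6%, 1.07%, 1.36% and 5.22% in replicate 2. Genes in both replicates with either control went from 8 to 2, 37, 26 and 2, and against Input from 3 to 1, 10, 12 and 1. Against LacZ the count of 0 became 1 with 5 kb. Without intervals over a tRNA or snRNA gene, also added later, 6 of the 8 genes were counted. With 1 kb, 1 promoter peak in each Input list, in place of 2, overlapped a peak of the other replicate, and with the score limit 1 in CRLM1/Input 2.

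The ratio of promoter share to sequence share in CRLM1/Input 1 (0.286) was 0.204 with 1 kb and 0.441 with all transcripts. In CRLM1/Input 2 (0.561) it was 0.473 with 1 kb, 0.65 with 5 kb and 0.67 with all transcripts. In CRLM1/LacZ 2 (0.998) it was 0.436 with 1 kb, on 2 genes. The genes in either replicate, 302 against Input and 385 against LacZ, ranged from 64 to 241 and from 9 to 376 with either replicate left out. For these moves the cause was not tested. No paired analysis was possible because the results come from no test that a replicate block could enter. Taken side by side within a replicate, the promoter share was higher in the LacZ list than in the Input list in both, 3.28% and 0.713% in replicate 1, and 2.49% and 1.4% in replicate 2, where the exact intervals overlap. The lists hold called peaks only, so a promoter without a peak has no measured value, and depth could not be set against any count.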
